A study of Homo sapiens with 5 samples.

Results

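The 10 genes described here encode 2 natriuretic peptides of the heart (NPPA, NPPB) and 8 proteins of the sarcomere, the contractile unit of striated muscle: the myosin light chains MYL4, MYL7 and MYL3, the alpha-actins ACTC1 and ACTA1, and the troponin subunits TNNT2, TNNI1 and TNNC1. They were taken by symbol from a deposited table of 26506 genes, and all 10 were found. The set was put together with the values of these same libraries in view, so its levels and differences are given as a description and carry no test. RNA was sequenced from H9, an established human embryonic stem cell line, in 5 libraries with 1 library per group. B3GALT5-KO cells (genotype B3GALT5-/-, lacking a galactosyltransferase of glycosphingolipid synthesis) were grown in 2iLAF medium, labelled naive, and in basal medium, labelled primed. Wild-type (WT) cells were grown in 5iLAF medium, labelled naive, in 2iLAF medium, labelled primed-naive and serving as the control for that medium, and in basal medium, labelled primed. Whether the knockout was 1 clone is not given in the sources used here. Expression is given in TPM, transcript abundance scaled for gene length to the same total in each library, so levels can be set side by side between genes. With 1 library per group no error between cultures and no p-value can be given. In bulk RNA a larger share of cells holding a transcript and more transcript per cell cannot be told apart.

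The sarcomere slides actin-based thin filaments along myosin-based thick filaments. Each myosin head carries an essential and a regulatory light chain, and on the thin filament the troponin complex, of a calcium-binding subunit C, an inhibitory subunit I and a tropomyosin-binding subunit T, makes contraction depend on calcium. Several of these proteins come in atrial, ventricular, slow skeletal and fetal forms from separate genes. NPPA and NPPB encode secreted hormones that lower blood volume and pressure and are switched on early in the developing heart. Many muscle genes are controlled by serum response factor (SRF), which binds the CArG box, an A/T-rich core between paired C and paired G bases.

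RefSeq promoter sequences (GRCh38.p14) matched 6 of the 10 symbols: NPPA, MYL7, MYL3, ACTC1, ACTA1 and TNNT2. The 250 bases before the annotated start were searched on both strands for the CArG box and the MEF2 site, and for the TATA motif spelled TATAAA. Also searched were a motif of GATA factors spelled GATAA, the MCAT element of TEAD factors spelled CATTCC and a motif of NKX2-5 spelled TNAAGTG. Where a gene had several starts in the table, the one nearest the GENCODE principal transcript was taken. The following 5 are shown because 3 of them hold the CArG box and the others, also of genes described below, do not. Letters in capitals mark matches to any of the 6 motifs, and each sequence reads 5′ to 3′ and ends 1 base before the start.
ACTC1, chr15:34795550-34795799, minus strand: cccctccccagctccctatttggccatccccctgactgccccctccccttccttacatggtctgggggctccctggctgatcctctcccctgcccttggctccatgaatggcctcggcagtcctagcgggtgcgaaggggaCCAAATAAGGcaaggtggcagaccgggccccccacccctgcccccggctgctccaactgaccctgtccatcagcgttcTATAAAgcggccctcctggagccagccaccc
ACTA1, chr1:229434095-229434344, minus strand: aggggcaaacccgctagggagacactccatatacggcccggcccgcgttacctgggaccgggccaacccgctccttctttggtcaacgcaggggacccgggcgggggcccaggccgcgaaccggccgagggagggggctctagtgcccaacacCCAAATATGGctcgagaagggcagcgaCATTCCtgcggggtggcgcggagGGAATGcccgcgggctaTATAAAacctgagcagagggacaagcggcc
MYL7, chr7:44141333-44141582, minus strand: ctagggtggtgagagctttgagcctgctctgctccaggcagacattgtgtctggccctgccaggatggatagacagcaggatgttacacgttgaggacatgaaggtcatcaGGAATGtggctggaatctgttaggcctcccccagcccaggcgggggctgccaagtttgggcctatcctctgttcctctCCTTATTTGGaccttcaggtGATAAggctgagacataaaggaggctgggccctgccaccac
NPPA, chr1:11847784-11848033, minus strand: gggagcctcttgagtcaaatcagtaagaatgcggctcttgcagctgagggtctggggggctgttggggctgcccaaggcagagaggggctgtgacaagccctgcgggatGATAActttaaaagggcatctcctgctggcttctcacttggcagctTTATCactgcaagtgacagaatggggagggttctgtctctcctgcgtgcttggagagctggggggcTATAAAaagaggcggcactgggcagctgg
TNNT2, chr1:201377681-201377930, minus strand: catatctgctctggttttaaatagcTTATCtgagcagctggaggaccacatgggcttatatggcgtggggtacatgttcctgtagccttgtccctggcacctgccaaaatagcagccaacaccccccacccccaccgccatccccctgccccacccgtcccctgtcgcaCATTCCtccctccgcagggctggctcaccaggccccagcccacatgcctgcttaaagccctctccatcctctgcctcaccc
A CArG box was present in 3 of the 6 windows, against 1.16% of all 35116 promoter entries of the same length. It began 109 bases before the start in ACTC1, 97 in ACTA1 and 61 in MYL7. The searched CArG pattern is its own reverse complement, so any match to it reads as a CArG box on both strands. TATAAA stood in 3 windows (ACTC1, ACTA1 and NPPA; 10.7% of all entries), GATAA in 4 (NPPA, MYL7, MYL3 and TNNT2; 20.4%) and CATTCC in 3 (ACTA1, MYL7 and TNNT2; 11.9%). Neither the MEF2 site (2.80% of all entries) nor TNAAGTG (8.73%) matched in the 6 windows. No 2 matches of different motifs overlapped in these windows. These are letter matches and show no binding.

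**Figure D1:**
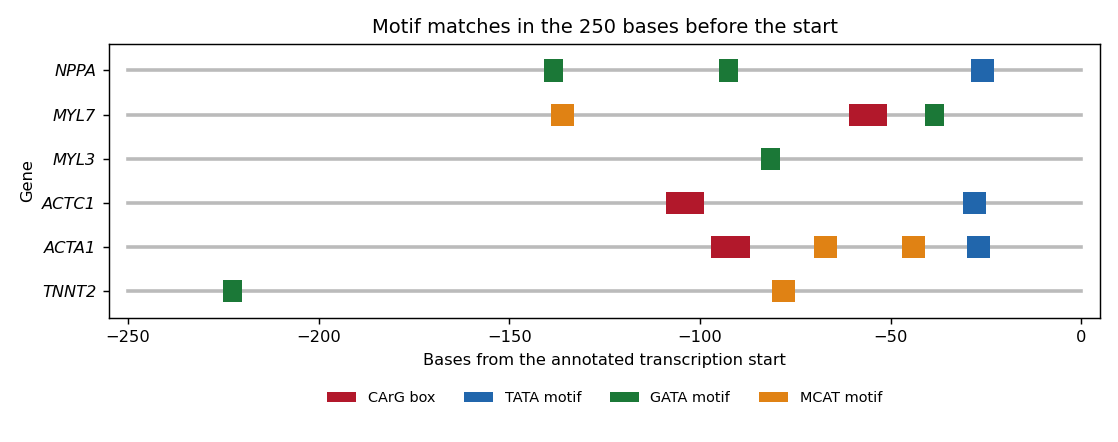
Positions of motif matches in the 250 bases before the annotated start of the 6 genes with a promoter entry, in bases from the start (0). Boxes mark the CArG box, the TATA motif (TATAAA), the GATA motif (GATAA) and the MCAT motif (CATTCC); the CArG boxes of ACTC1, ACTA1 and MYL7 begin 109, 97 and 61 bases before the start.

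Both natriuretic peptide genes were expressed in the cultures labelled naive and stood far lower or were listed at 0 elsewhere. NPPB, which encodes B-type natriuretic peptide, stood at 311 TPM in B3GALT5-KO 2iLAF, 840.4 in WT 5iLAF, 2.91 in WT 2iLAF, with 0.35 in B3GALT5-KO basal and a listed 0 in WT basal. In WT 5iLAF it was the gene with the highest level of the 10 and ranked 170 among all 26506 genes. NPPA, which encodes atrial natriuretic peptide, stood at 2.52 TPM in B3GALT5-KO 2iLAF and 19.85 in WT 5iLAF and was listed at 0 in the other libraries. NPPB was thus the more abundant peptide transcript wherever both were found, at 123 times the NPPA level in B3GALT5-KO 2iLAF and 42.3 times in WT 5iLAF. Both were lower in B3GALT5-KO 2iLAF than in WT 5iLAF, with log2 ratios of (TPM + 1) of -2.57 for NPPA and -1.43 for NPPB, and none of the 8 sarcomere genes passed as lower there.

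The light chains were led by the atrial forms. MYL4, the essential light chain of atrial and embryonic muscle, stood at 645 TPM in B3GALT5-KO 2iLAF, 287 in WT 5iLAF and 2.56 in WT 2iLAF, was listed at 0 in B3GALT5-KO basal and stood at 0.49 in WT basal. MYL7, the atrial regulatory light chain, stood at 448 TPM in B3GALT5-KO 2iLAF, 428 in WT 5iLAF, 16.3 in WT 2iLAF, 3.71 in B3GALT5-KO basal and 3.14 in WT basal. Both genes were therefore abundant in the cultures labelled naive, and both were above their WT basal level in WT 2iLAF. MYL3, the essential light chain of ventricular and slow skeletal muscle, stood at 20.2 TPM in B3GALT5-KO 2iLAF, 20.85 in WT 5iLAF and 8.83 in WT 2iLAF, was listed at 0 in B3GALT5-KO basal and stood at 0.22 in WT basal. Between the essential light chains, MYL4 exceeded MYL3 by 31.9 times in B3GALT5-KO 2iLAF and 13.8 times in WT 5iLAF, whereas in WT 2iLAF the order was turned, with MYL4 at 0.29 of the MYL3 level. The MYL3 value is uncertain because, in the annotation, PTH1R overlaps it on the opposite strand, and the strand setting of the authors' quantification is not given in the sources used here. PTH1R itself stood at 22.1 TPM in B3GALT5-KO 2iLAF, 22.1 in WT 5iLAF, 6.42 in WT 2iLAF, 0.64 in B3GALT5-KO basal and 0.26 in WT basal, near the MYL3 level except in B3GALT5-KO basal, where MYL3 was listed at 0.

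Of the 10 genes the alpha-actins were the ones that reached over 100 TPM in WT 2iLAF as well. ACTC1, cardiac alpha-actin, stood at 1030.0 TPM in B3GALT5-KO 2iLAF, 328 in WT 5iLAF, 120.4 in WT 2iLAF, 6.83 in B3GALT5-KO basal and 5.60 in WT basal. ACTA1, skeletal alpha-actin, which is also made in the fetal heart, stood at 206 TPM in B3GALT5-KO 2iLAF, 206 in WT 5iLAF, 106 in WT 2iLAF, 21.3 in B3GALT5-KO basal and 4.87 in WT basal. ACTC1 in B3GALT5-KO 2iLAF was the highest value of any of the 10 genes in any library and ranked 150 among all genes there. Their balance differed between libraries, with ACTC1 at 5.00 times the ACTA1 level in B3GALT5-KO 2iLAF, 1.60 times in WT 5iLAF and 1.13 times in WT 2iLAF, but 0.32 times in B3GALT5-KO basal and 1.15 times in WT basal. Actins are near-identical as proteins, and quantification divides ambiguous reads by an estimate. Of the distinct 50-base stretches in the annotated transcripts, 0.22% of those of ACTC1 and 1.81% of those of ACTA1 also occurred exactly in another gene; the share was 0 for NPPA, NPPB, MYL4, MYL7, MYL3 and TNNC1, 0.74% for TNNT2 and 0.51% for TNNI1.

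The troponin genes did not move as 1 unit. TNNT2, cardiac troponin T, stood at 172 TPM in B3GALT5-KO 2iLAF, 20.9 in WT 5iLAF, 15.5 in WT 2iLAF, 13 in B3GALT5-KO basal and 5.30 in WT basal. TNNC1, the calcium-binding troponin C of heart and slow skeletal muscle, stood at 48.4 TPM in B3GALT5-KO 2iLAF, 54.7 in WT 5iLAF, 17.8 in WT 2iLAF, 8.55 in B3GALT5-KO basal and 4.88 in WT basal. TNNT2 was thus set apart by its level in B3GALT5-KO 2iLAF, while TNNC1 was near level between that library and WT 5iLAF. TNNI1, the slow skeletal troponin I that the fetal heart also uses, stood at 4.55 TPM in B3GALT5-KO 2iLAF, 0.63 in WT 5iLAF, 0.40 in WT 2iLAF, 0.12 in B3GALT5-KO basal and 0.10 in WT basal. It was the lowest of the 3 troponin subunits in every library and stayed below 1 TPM outside B3GALT5-KO 2iLAF. The ratio of TNNT2 to TNNC1 was 3.55 in B3GALT5-KO 2iLAF, 0.38 in WT 5iLAF, 0.87 in WT 2iLAF, 1.52 in B3GALT5-KO basal and 1.09 in WT basal.

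**Figure D2:**
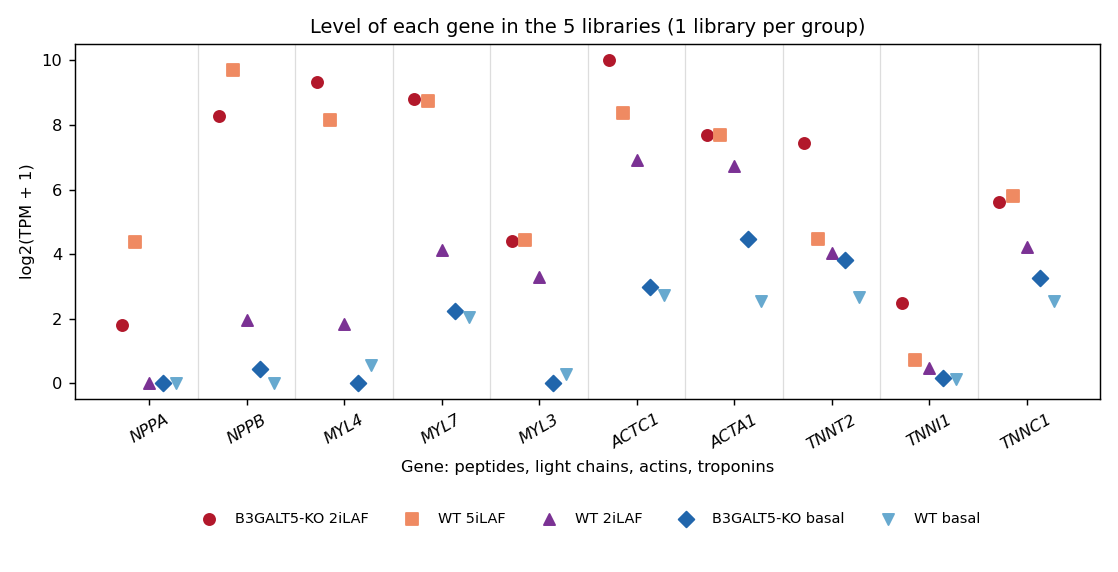
Level of each of the 10 genes, as log2(TPM + 1), in the 5 libraries; each point is 1 library and no error can be drawn. B3GALT5-KO 2iLAF and WT 5iLAF lie above the other libraries for each gene, and WT 2iLAF lies between them and the basal libraries for all but NPPA, which is at 0 in these 3.

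Summed over the 10 genes, the level was 2886 TPM in B3GALT5-KO 2iLAF, 2206 in WT 5iLAF, 291 in WT 2iLAF, 53.9 in B3GALT5-KO basal and 24.6 in WT basal. The make-up of that sum differed. ACTC1 gave 35.7% of it in B3GALT5-KO 2iLAF, followed by MYL4 with 22.3%, whereas NPPB gave 38.1% of it in WT 5iLAF, followed by MYL7 with 19.4%. In WT 2iLAF the 2 actins together were the bulk, ACTC1 with 41.4% and ACTA1 with 36.5%. In the basal libraries ACTA1 led in B3GALT5-KO with 39.5% and ACTC1 in WT with 22.8%. The order of levels was ACTC1, MYL4, MYL7, NPPB, ACTA1, TNNT2, TNNC1, MYL3, TNNI1 and NPPA in B3GALT5-KO 2iLAF, and NPPB, MYL7, ACTC1, MYL4, ACTA1, TNNC1, TNNT2, MYL3, NPPA and TNNI1 in WT 5iLAF. Without replicate libraries it cannot be said which neighbours in these orders differ beyond the spread between cultures.

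The libraries were then compared in pairs, and a gene was called higher where its log2 ratio of (TPM + 1) reached 1, a 2-fold difference, and lower where it reached -1. Counts over the 10 genes stand beside the share of all 15761 genes reaching 1 TPM in some library; all 10 genes reached it. Because the genes were chosen from these libraries, these shares are background and are not evidence about the set. Both WT medium comparisons and the knockout comparison in basal medium share the WT basal library, and all 3 comparisons of B3GALT5-KO 2iLAF share that library.

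In WT 5iLAF against WT basal, 9 of the 10 genes were higher and 0 lower, where 10.7% of all genes were higher and 11.4% lower. The median log2 ratio of the 10 genes was 4.76, beside -0.06 over all genes. NPPB had a log2 ratio of 9.72, MYL4 7.59, MYL7 6.70 and ACTC1 5.64. TNNI1, at a ratio of 0.57, was the exception. TNNT2 had the smallest ratio among them, at 1.80, and at 0.65 it did not pass when B3GALT5-KO basal was put in place of WT basal.

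In B3GALT5-KO 2iLAF against B3GALT5-KO basal, all 10 genes were higher, where 15.9% of all genes were higher and 11.8% lower. Their median log2 ratio was 4.02, beside 0.02 over all genes. MYL4 stood out with 9.33, followed by NPPB with 7.85 and ACTC1 with 7.04, and NPPA had the smallest ratio at 1.82. At a pseudocount of 5, 8 of the 10 were higher, where 8.57% of all genes were, and NPPA (0.59) and TNNI1 (0.90) did not pass. ACTA1 had a ratio of 3.21 here, from a basal level of 21.3 TPM in the knockout, against 5.14 in WT 5iLAF over WT basal.

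In WT 2iLAF against WT basal, 8 of the 10 genes were higher and 0 lower, where 4.73% of all genes were higher and 7.02% lower. Their median log2 ratio was 1.82, beside -0.13 over all genes; relative to that shift the ratios are larger by the same amount. The actins had the largest ratios, 4.20 for ACTC1 and 4.19 for ACTA1, followed by MYL3 with 3.01. NPPA, listed at 0 in both libraries, and TNNI1, with a ratio of 0.35, did not pass the size rule. With B3GALT5-KO basal in place of WT basal 6 were higher, where 6.17% of all genes were, and TNNT2 (0.24) and TNNC1 (0.98) did not pass. With a pseudocount of 5 in place of 1, 5 of the 10 were higher, where 2.23% of all genes were, and NPPB (0.66), MYL4 (0.46) and TNNT2 (0.99) did not pass. With a 4-fold rule 4 were higher, where 1.32% of all genes were.

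Knockout and WT cells were compared within each medium. In B3GALT5-KO 2iLAF against WT 2iLAF, 9 of the 10 genes were higher and 0 lower, where 16.6% of all genes were higher and 10.8% lower, and the median log2 ratio was 2.54, beside 0.10 over all genes. MYL4 had the largest ratio, 7.50, followed by NPPB with 6.32, MYL7 with 4.70 and TNNT2 with 3.39. ACTA1, at 0.95, lay just short of the size rule and was the gene that did not pass. At a pseudocount of 5, 6 of the 10 were higher, where 8.98% of all genes were, and NPPA (0.59), MYL3 (0.87) and TNNI1 (0.82) did not pass. With a 4-fold rule 5 of the 10 were higher, where 6.16% of all genes were. In B3GALT5-KO basal against WT basal, 2 of the 10 genes were higher and 0 lower, where 0.704% of all genes were higher and 1.05% lower. The median log2 ratio was 0.22, beside -0.06 over all genes. The 2 genes were ACTA1, with a log2 ratio of 1.93, and TNNT2, with 1.15. With a pseudocount of 5, TNNT2 had a ratio of 0.81 and did not pass, leaving ACTA1 alone, where 0.216% of all genes were higher. With a pseudocount of 0.1, 2 genes near 0 (MYL4 and MYL3) were lower, where 3.31% of all genes were. NPPB, also near 0, passed as higher at that pseudocount, with a ratio of 2.17. With a 4-fold rule 0 of the 10 were higher, where 0.0761% of all genes were. NPPB, MYL4, MYL3 and TNNI1 stood below 1 TPM in both basal libraries, where ratios of small values say little.

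In B3GALT5-KO 2iLAF against WT 5iLAF, which differ in both genotype and medium, so that the 2 cannot be told apart, 4 of the 10 genes were higher and 2 lower, where 4.9% of all genes were higher and 1.03% lower. TNNT2 (log2 ratio 2.98), TNNI1 (1.77), ACTC1 (1.65) and MYL4 (1.16) were higher, and NPPA and NPPB were lower, as given above. MYL7 (0.06), ACTA1 (0.00), MYL3 (-0.04) and TNNC1 (-0.17) were near level. The median of the 10 genes was 0.03, beside 0.00 over all genes. TNNI1 did not pass with a pseudocount of 5, at 0.76. With a 4-fold rule 1 gene was higher (TNNT2) and 1 lower (NPPA), where 1.36% of all genes were higher and 0.0698% lower.

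**Figure D3:**
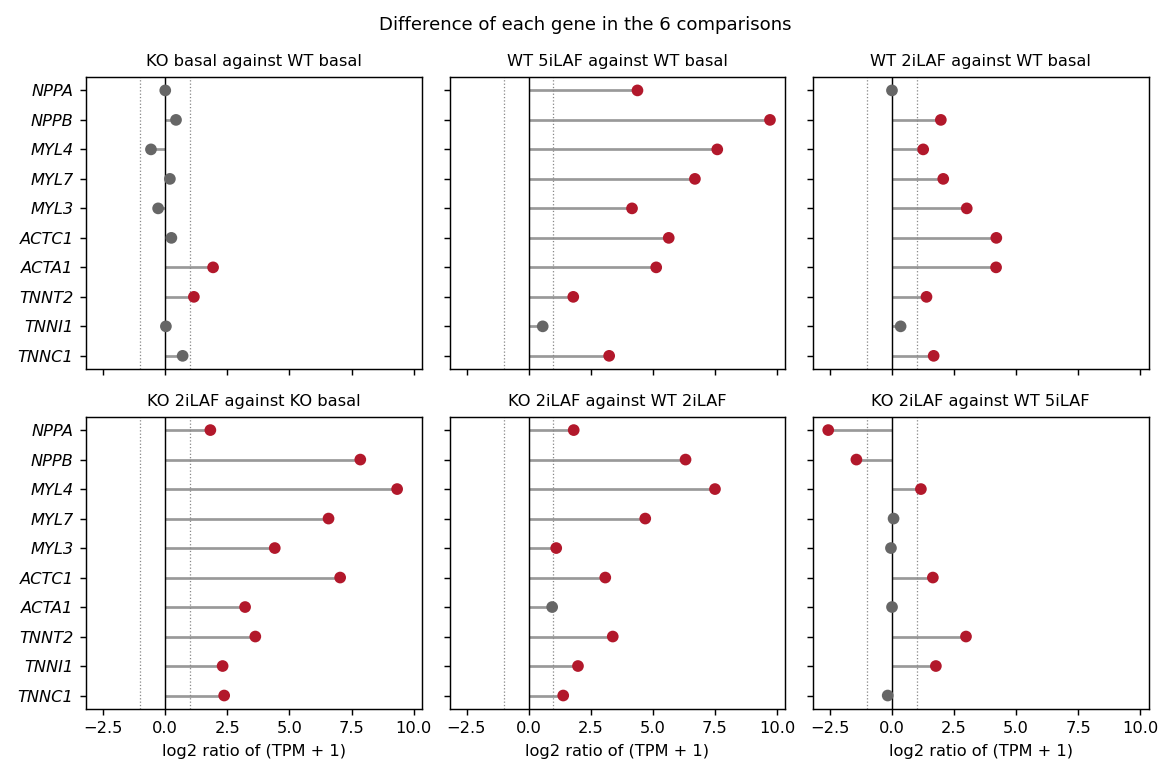
Log2 ratio of (TPM + 1) of each gene in the 6 comparisons, the first-named library over the second; red points lie at or beyond the dotted lines at -1 and 1. Ratios are positive for all 10 genes in B3GALT5-KO 2iLAF against B3GALT5-KO basal and run from -2.57 (NPPA) to 2.98 (TNNT2) against WT 5iLAF.

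The rest of the cardiac sarcomere was next examined from lists of its known parts. Of 11 other thick filament genes, 7 stayed below 1 TPM in all 5 libraries. The cardiac myosin heavy chains that partner these light chains were among them: MYH6, the atrial form, reached 0.07 TPM at most and MYH7, the ventricular and slow skeletal form, 0.02. Likewise MYL2, the ventricular regulatory light chain, was at 0.12 TPM in WT 2iLAF and listed at 0 elsewhere, MYBPC3, cardiac myosin-binding protein C, did not exceed 0.10 TPM, and TTN, the giant spring protein titin, did not exceed 0.29. MYH7B, another myosin heavy chain, stood at 1.37 TPM in B3GALT5-KO 2iLAF, 2.25 in WT 5iLAF and at most 0.21 elsewhere. Of 4 tested genes, 1 (MYH7B) was higher and 0 lower in WT 5iLAF against WT basal, where 10.7% and 11.4% of all genes were. The same counts held in B3GALT5-KO 2iLAF against B3GALT5-KO basal (MYH7B, beside 15.9% and 11.8%) and against WT 2iLAF (MYOM1, beside 16.6% and 10.8%). The atrial light chains thus stood at between 287 and 645 TPM in libraries where MYH6 and MYH7 were near 0.

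The other troponins followed a different course from TNNT2 and TNNC1. TNNT1, slow skeletal troponin T, stood at 87.8 TPM in B3GALT5-KO 2iLAF, 138 in WT 5iLAF, 219 in WT 2iLAF, 78.1 in B3GALT5-KO basal and 83.5 in WT basal. TNNI3, the troponin I of the adult heart, stood at 15.4 TPM in B3GALT5-KO 2iLAF, 21.9 in WT 5iLAF, 36.1 in WT 2iLAF, 40.05 in B3GALT5-KO basal and 33.7 in WT basal. Both were present in the primed cultures and neither was highest in the cultures labelled naive; in the annotation TNNI3 is overlapped by another gene on the same strand, so its value is uncertain. TNNT1 was the leading troponin T in all libraries but B3GALT5-KO 2iLAF, where it was 0.51 of TNNT2, and it was 6.59 times TNNT2 in WT 5iLAF. Of the 3 other troponins that reached 1 TPM, 0 were higher and 2 lower in B3GALT5-KO 2iLAF against B3GALT5-KO basal, 0 higher and 3 lower against WT 2iLAF, 0 higher and 1 lower in WT 5iLAF against WT basal, and 1 higher (TNNT1, log2 ratio 1.38) and 0 lower in WT 2iLAF against WT basal. Over all genes 15.9%, 16.6%, 10.7% and 4.73% were higher in these comparisons in turn, and 11.8%, 10.8%, 11.4% and 7.02% lower.

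Of the 9 other thin filament genes, the tropomyosins TPM1, TPM2, TPM3 and TPM4 lay between 200.4 and 1358 TPM in all libraries, LMOD3 was listed at 0 in all, and LMOD2 and NEB did not exceed 0.24 TPM. Of 6 tested genes, 5 were higher in WT 5iLAF against WT basal, 5 in B3GALT5-KO 2iLAF against B3GALT5-KO basal and 3 in WT 2iLAF against WT basal, with 0 lower in each. TPM1, the main tropomyosin of striated muscle, which other cells also use, stood at 1358 TPM in B3GALT5-KO 2iLAF, 896 in WT 5iLAF, 1283 in WT 2iLAF, 323 in B3GALT5-KO basal and 212 in WT basal. Among the 11 tested Z disc partners, WT 5iLAF against WT basal had 8 higher and 0 lower, with 9 higher and 1 lower in B3GALT5-KO 2iLAF against B3GALT5-KO basal, and 3 higher and 1 lower in WT 2iLAF against WT basal. For both lists the shares of all genes in these comparisons, in turn, were 10.7%, 15.9% and 4.73% higher and 11.4%, 11.8% and 7.02% lower. ANKRD1, a stress-responsive protein of the sarcomere, stood at 54.5 TPM in B3GALT5-KO 2iLAF, 112 in WT 5iLAF, 13.8 in WT 2iLAF, 0.53 in B3GALT5-KO basal and 0.23 in WT basal. FLNC, the muscle filamin, stood at 105 TPM in B3GALT5-KO 2iLAF, 99.7 in WT 5iLAF, 23.05 in WT 2iLAF, 5.55 in B3GALT5-KO basal and 4.86 in WT basal. In contrast ACTN2, the alpha-actinin that anchors thin filaments at the Z disc, stayed between 0.73 and 1.65 TPM in the 5 libraries.

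Genes of calcium handling and excitation went both ways. In WT 5iLAF over WT basal 3 of 15 were higher and 2 lower, where 10.7% and 11.4% of all genes were. For knockout cells, 2iLAF over basal, 5 were higher and 2 lower, beside 15.9% and 11.8%. The lower counts were thus near the shares of all genes. GJA1, the most abundant of the list, passed as higher each time: 882 TPM under 5iLAF and 819 in the 2iLAF knockout, with 359 in the basal knockout and 298 in WT basal. It stood at 841 TPM in WT 2iLAF. JPH2 was also higher each time (log2 ratios 2.53 and 3.23). SLN, sarcolipin, an inhibitor of the calcium pump in atrial and skeletal muscle, stood at 102 TPM in B3GALT5-KO 2iLAF, 20.6 in WT 5iLAF, 0.55 in WT 2iLAF, with 0.11 in B3GALT5-KO basal and a listed 0 in WT basal. PLN, phospholamban, its relative in the heart, stood at 13.2 TPM in B3GALT5-KO 2iLAF and at 0.79 in WT 5iLAF. RYR2, the calcium release channel of heart muscle, stayed between 0.43 and 1.02 TPM. ATP2A2, the calcium pump itself, was near level, at 137 TPM in B3GALT5-KO 2iLAF, 133 in WT 5iLAF, 114 in WT 2iLAF, 118 in B3GALT5-KO basal and 129 in WT basal.

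Regulators of the heart programme were examined as a list. Of 15 tested cardiac transcription factors, 8 were higher and 1 lower in WT 5iLAF against WT basal, 10 higher and 0 lower in B3GALT5-KO 2iLAF against B3GALT5-KO basal, 12 higher and 0 lower against WT 2iLAF, and 0 higher and 2 lower in WT 2iLAF against WT basal. Over all genes 10.7%, 15.9%, 16.6% and 4.73% were higher in these comparisons in turn, and 11.4%, 11.8%, 10.8% and 7.02% lower. HAND1, a factor of heart, lateral mesoderm and extraembryonic tissue, stood at 135 TPM in B3GALT5-KO 2iLAF, 43.5 in WT 5iLAF and 0.66 in WT 2iLAF and was listed at 0 in both basal libraries. GATA4 and GATA6 stood at 76.7 and 32.3 TPM in B3GALT5-KO 2iLAF and at 44.2 and 30.5 in WT 5iLAF, and did not exceed 0.25 elsewhere. NKX2-5, an early marker of heart progenitors, did not follow them, at 4.08 TPM in B3GALT5-KO 2iLAF, 7.92 in WT 5iLAF, 6.09 in WT 2iLAF, 4.20 in B3GALT5-KO basal and 4.1 in WT basal, and TBX5 stayed below 1 TPM. SRF stood at 101 TPM in B3GALT5-KO 2iLAF, 98.7 in WT 5iLAF, 87.4 in WT 2iLAF, 70.8 in B3GALT5-KO basal and 60.8 in WT basal. Its muscle cofactor MYOCD stood at 5.46 TPM in B3GALT5-KO 2iLAF and 1.84 in WT 5iLAF and below 1 TPM in the other libraries. The actins and light chains were thus above their WT basal level in WT 2iLAF while HAND1, GATA4 and GATA6 were below 1 TPM there.

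Of 6 tested partners of the natriuretic peptides, 1 was higher and 1 lower in WT 5iLAF against WT basal, near the 10.7% and 11.4% of all genes, and 2 were higher and 1 lower in B3GALT5-KO 2iLAF against B3GALT5-KO basal, where 15.9% and 11.8% of all genes were. NPR1, the receptor of both peptides, stood at 0.38 TPM in B3GALT5-KO 2iLAF, 0.14 in WT 5iLAF, 0.62 in WT 2iLAF, 13.1 in B3GALT5-KO basal and 15.45 in WT basal. The receptor transcript was thus present in the basal libraries, where the peptide transcripts were at or near 0. It was below 1 TPM where NPPB was abundant, and also in WT 2iLAF, with NPPA listed at 0 and NPPB at 2.91 TPM. NPR2, also on the list, took another course: 30.7 TPM under 5iLAF and 27.2 in the 2iLAF knockout, against at most 9.35 elsewhere. NPR2 (log2 ratio 1.49) and MME (1.42) were the partners higher in 2iLAF over basal knockout cells. CORIN, the protease that matures atrial natriuretic peptide in the heart, did not exceed 0.20 TPM. FURIN, a protease with many substrates that include the B-type precursor, stood at 62.0 TPM in B3GALT5-KO 2iLAF, 49.2 in WT 5iLAF, 21.4 in WT 2iLAF, 31.7 in B3GALT5-KO basal and 31.04 in WT basal.

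Markers of muscle cell types and of fibroblasts were read beside the 10 genes. Of 12 cardiomyocyte markers, 8 were below 1 TPM in B3GALT5-KO 2iLAF, 10 in WT 5iLAF, 8 in WT 2iLAF, with 9 in each basal library, and 7 stayed below it in all 5. Their sum was 35.8 TPM in B3GALT5-KO 2iLAF, 32.6 in WT 5iLAF, 44.7 in WT 2iLAF, 46.4 in B3GALT5-KO basal and 40.2 in WT basal, with TNNI3 the largest part in each. Skeletal muscle markers summed to 6.14 TPM in B3GALT5-KO 2iLAF, 5.15 in WT 5iLAF, 32.9 in WT 2iLAF, 19.5 in B3GALT5-KO basal and 14.5 in WT basal, led by ACTN3 in all but WT 5iLAF, where PAX3 was higher, and MYH1, MYH8 and MYL1 were listed at 0 in all 5. The skeletal muscle sum was not highest in the libraries where the 10 genes were highest. Without TNNI3, whose value is uncertain, the other 11 cardiomyocyte markers summed to 20.4 TPM in B3GALT5-KO 2iLAF, 10.75 in WT 5iLAF, 8.61 in WT 2iLAF, 6.30 in B3GALT5-KO basal and 6.44 in WT basal. This sum, taken after the values were seen, was highest in the cultures labelled naive, but most of it came from 1 gene in each. That gene was PLN in B3GALT5-KO 2iLAF, with 13.2 TPM, and NKX2-5 in WT 5iLAF, with 7.92 TPM. NKX2-5 stood at 4.08 TPM in B3GALT5-KO 2iLAF and 6.09 in WT 2iLAF, and PLN at 0.79 in WT 5iLAF. The sum of the smooth muscle markers, however, moved with the 10 genes. It was 5221 TPM in B3GALT5-KO 2iLAF, 4048 in WT 5iLAF, 1372 in WT 2iLAF, 667 in B3GALT5-KO basal and 376 in WT basal. TAGLN was its largest part in the first 2 of these libraries, with 2037 and 1686 TPM. MYH11, the smooth muscle myosin heavy chain, stayed below 1 TPM in all 5 libraries. Of the smooth muscle markers, 7 of 8 tested were higher in B3GALT5-KO 2iLAF and 6 of 8 in WT 5iLAF against basal medium of the same genotype. Fibroblast markers summed to 5492 TPM in B3GALT5-KO 2iLAF, 1869 in WT 5iLAF, 137 in WT 2iLAF, 91.6 in B3GALT5-KO basal and 72.2 in WT basal, with 7 of 8 and 6 of 8 higher in the same comparisons. Of all genes 15.9% and 10.7% were higher in these comparisons. COL3A1, a fibrillar collagen, stood at 1871 TPM in B3GALT5-KO 2iLAF, 258 in WT 5iLAF and below 1 TPM in the other libraries, and LUM, lumican, at 438 and 18.0 TPM in the first 2 and below 1 TPM in the others. The part of such cells in the levels of the 10 genes was not tested.

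**Figure D4:**
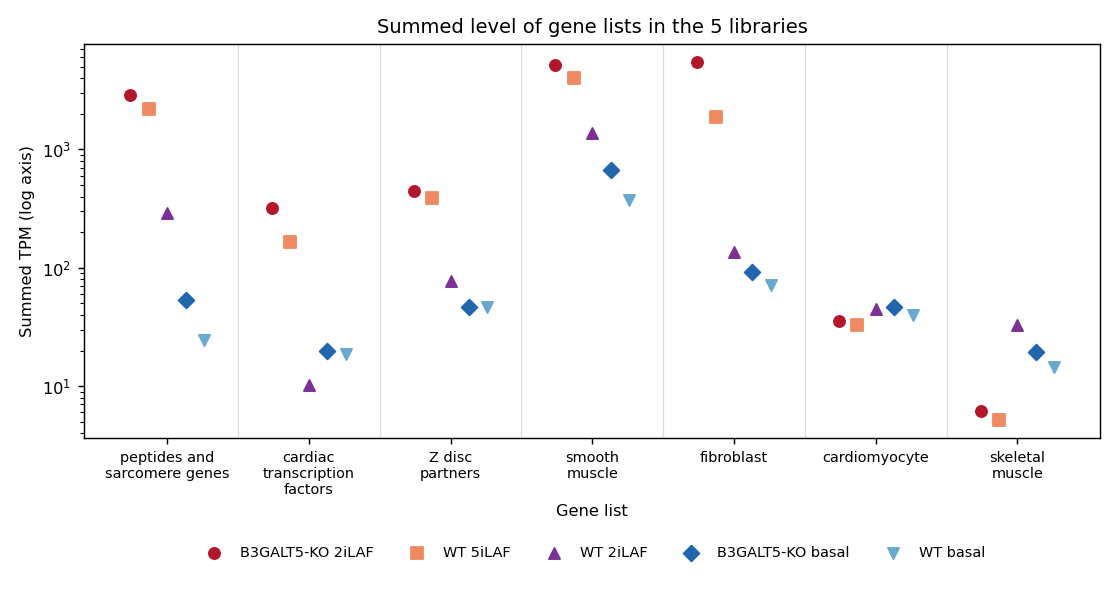
Summed TPM, on a log axis, of the 10 genes and of 6 gene lists in the 5 libraries; each point is 1 library. The sums of smooth muscle and of fibroblast markers are highest in B3GALT5-KO 2iLAF and WT 5iLAF, as that of the 10 genes is. MYH11, on the smooth muscle list, stays below 1 TPM in all 5. The sum of cardiomyocyte markers lies between 32.6 and 46.4 TPM in all 5. Without TNNI3 their sum is 20.4 and 10.75 TPM in those 2 libraries and at most 8.61 in the others. Most of it is PLN (13.2 TPM) in B3GALT5-KO 2iLAF and NKX2-5 (7.92 TPM) in WT 5iLAF.

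Transcripts of blood cells also set libraries apart. Granulocyte markers summed to 1048 TPM in B3GALT5-KO 2iLAF, where the 10 genes were also highest, against at most 10.05 TPM in the other libraries, and globin genes to 218 TPM in both B3GALT5-KO 2iLAF and WT basal, against at most 12.1 elsewhere. Rescaling TPM without these genes left every count over the 10 genes as it was. Because they are so small a part of the total of 1000000 TPM, this rescaling could hardly change any ratio. What blood cells contribute to the levels of the 10 genes was not tested. Endothelial markers summed to between 12.9 and 48.3 TPM. Pluripotency markers, the defining genes of the labelled cell line, summed to 2975 TPM in B3GALT5-KO 2iLAF, 3360 in WT 5iLAF, 3980 in WT 2iLAF, 5408 in B3GALT5-KO basal and 5573 in WT basal, with POU5F1 between 1099 and 3350.3 TPM. Of 8 markers, 2 were higher and 3 lower in WT 2iLAF against WT basal, where 4.73% and 7.02% of all genes were. NANOG was among those lower, at 16.5 TPM against 171. In WT 5iLAF against WT basal 0 were higher and 2 lower, beside 10.7% and 11.4%. The same counts held in B3GALT5-KO 2iLAF against B3GALT5-KO basal, beside 15.9% and 11.8%. B3GALT5, the targeted gene, stood at 1.17 and 5.98 TPM in the knockout libraries (2iLAF and basal) and at 2.08, 5.13 and 9.31 TPM in the WT libraries (5iLAF, 2iLAF and basal), and since the edited part of the gene is not given here its transcript does not check the knockout. Between 13729 and 14156 genes reached 1 TPM per library, and read depth is unknown.

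Genes with a like pattern were sought for 4 of the 10 genes by the Euclidean distance of log2(TPM + 1) over the 5 libraries, among all genes of the table other than the 10. Nearest to NPPB were IGFBP7, a secreted binding protein of growth factors (distance 2.46), MEG3, an imprinted RNA (2.71), and IL32, a cytokine (2.75). Nearest to MYL4 was ACTA2, smooth muscle alpha-actin (1.58), before MEG3 (1.78) and IL32 (2.05). The gene nearest to ACTC1 was SERPINB9, an inhibitor of granzyme B (1.85), followed by ACTG2, the enteric smooth muscle actin (1.99), and CNN1, calponin of smooth muscle (3.05). For TNNT2 they were CREB3L1 (1.38), EHD2 (1.62) and PALLD, palladin, an actin-binding protein (1.65). ACTA2 stood at 555 TPM in B3GALT5-KO 2iLAF, 192 in WT 5iLAF, 8.39 in WT 2iLAF, 0.20 in B3GALT5-KO basal and 0.81 in WT basal, so it and MYL4 shared the order of the libraries labelled naive. Among the 10 genes themselves the closest pairs were NPPB with MYL4 (2.01), TNNT2 with TNNC1 (2.33) and ACTC1 with ACTA1 (2.86).

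By position, NPPA and NPPB are next to each other on chromosome 1, and TNNT2 and TNNI1, also on chromosome 1, are separated by 1 protein-coding gene, LAD1. Outside the pair of peptide genes the neighbours stayed near level, CLCN6 between 10.6 and 15.2 TPM and KIAA2013 between 42.4 and 59.7 TPM over the 5 libraries. LAD1, ladinin of epithelial basement membranes, went against its troponin neighbours, at 0.75 TPM in B3GALT5-KO 2iLAF, 0.38 in WT 5iLAF, 38.7 in WT 2iLAF, 21.1 in B3GALT5-KO basal and 25.6 in WT basal. PHLDA3, on the other side of TNNI1, stood at 53.1 TPM in B3GALT5-KO 2iLAF, 46.4 in WT 5iLAF, 38.8 in WT 2iLAF, 1.86 in B3GALT5-KO basal and 12.8 in WT basal. PKP1, on the other side of TNNT2, stood at 2.80 TPM in B3GALT5-KO 2iLAF and below 1 TPM in the other libraries. LAD1 overlaps TNNT2 on the same strand in the annotation, and CLCN6 overlaps NPPA on the opposite strand, so reads in those stretches are uncertain. ITGB3, the integrin subunit next to MYL4 on chromosome 17, stood at 8.49 TPM in B3GALT5-KO 2iLAF, 6.53 in WT 5iLAF, 0.04 in WT 2iLAF, 0.13 in B3GALT5-KO basal and 0.14 in WT basal, in the same libraries as MYL4. CDC27, on the other side of MYL4, stood between 16.3 and 41.8 TPM. Neighbours of ACTC1 (AQR, GJD2) and of ACTA1 (NUP133, CCSAP) were not above their basal level in the cultures labelled naive.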

How the data were processed

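Poly(A)-selected RNA of 5 H9 libraries was sequenced by the authors with a stranded library kit, per the labels' protocols. Trimmomatic 0.39, Bowtie2 2.3.4.1, RSEM 1.2.28 and genome build hg19 are named in the submitters' processing notes, which give neither gene annotation nor strand setting. A single table was deposited by the authors, with a TPM and an FPKM value per gene and library, per the file headers, and 18 empty columns were not used. TPM removes library size and gene length, so a few abundant transcripts can lower all others. No counts are held, so depth is unknown and no counting interval is given.

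Ratios were computed as log2((TPM + 1)/(TPM + 1)) for 6 comparisons over the 15761 genes reaching 1 TPM in at least 1 library, with a size rule of 2-fold. The calling step was run on simulated data with 4-fold differences planted in abundant genes only. That run checks the code and says nothing about genes at low level or the spread between cultures. No test was made. The 10 genes and the 18 lists beside them were chosen with earlier results of these data known. In lists, up to 4 genes at the highest level are named, and genes listed at 0 in all libraries. Other genes were named for their role or position, some after their values were seen. These were the cardiac genes at or near 0 (MYH6, MYH7, MYL2, MYBPC3, TTN, RYR2, TBX5, CORIN), LMOD2, NEB, PLN, NKX2-5, ACTN2, MYOCD, MYH11, NANOG, and the genes that overlap or neighbour the 10. Names, neighbours and promoters came from RefSeq (GRCh38.p14), overlaps and 50-base stretches from GENCODE, matched by symbol. As alternatives the pseudocount was set to 0.1 or 5, the filter was dropped or raised to 5 TPM, values were rescaled by median ratios or taken as FPKM, and the size rule was set to 1.5-fold or 4-fold. Rescaling without blood cell genes, B3GALT5-KO basal in place of WT basal and the cardiomyocyte marker sum without TNNI3 were added after seeing the data. Scripts ran under Python 3.11.15 with pandas 2.3.3, numpy 2.4.6 and matplotlib 3.10.9.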

Additional observations from a re-analysis of the deposited data

Results flagged for a closer look

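MYL4 and MYL3 were picked out because the knockout and WT libraries differed in opposite directions in the 2 media. For MYL4 the log2 ratio of (TPM + 1) of B3GALT5-KO against WT was 7.50 in 2iLAF and -0.58 in basal medium, where both values lay below 1 TPM (listed at 0 in B3GALT5-KO and 0.49 in WT). For MYL3 it was 1.11 in 2iLAF and -0.29 in basal medium, where both values also lay below 1 TPM (listed at 0 and 0.22). With 1 library per group the difference between media was not tested.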

How the results depend on the processing

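Counts of genes higher or lower among the 10, and their median log2 ratios, moved under pseudocounts and the size rule of 4-fold; a count is said to move when it changes by more than 1.5 times, and a median when the ratio it stands for does. With a pseudocount of 0.1, 2 genes (MYL4 and MYL3) were lower in B3GALT5-KO basal against WT basal, and NPPB was added to those higher there. The medians were 5.94 (WT 5iLAF against WT basal), 5.79 (B3GALT5-KO 2iLAF against B3GALT5-KO basal) and 3.34 (B3GALT5-KO 2iLAF against WT 2iLAF). With a pseudocount of 5 the first 2 medians were 3.50 and 3.15 and that of WT 2iLAF against WT basal 1.10, with 5 genes higher there and 1 in B3GALT5-KO basal against WT basal. With the size rule of 4-fold, 0 genes were higher in B3GALT5-KO basal against WT basal, 4 in WT 2iLAF against WT basal, 5 in B3GALT5-KO 2iLAF against WT 2iLAF, and 1 higher and 1 lower in B3GALT5-KO 2iLAF against WT 5iLAF. The pseudocount acts most on genes below a few TPM. The other 142 recomputed counts and medians stayed within these limits, median-ratio scaling and FPKM included, though some counts changed within them (with a pseudocount of 5, 6 genes were higher in B3GALT5-KO 2iLAF against WT 2iLAF and 8 against B3GALT5-KO basal), and no gene past the size rule changed direction. With FPKM, MYL4 in WT 2iLAF against WT basal (0.93) and MYL3 in B3GALT5-KO 2iLAF against WT 2iLAF (0.92) no longer passed. No paired analysis was possible because each group holds 1 library. Depth is unknown, so values near 0 cannot be given a detection limit.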
